A study of Homo sapiens with 11 samples.

Results

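The data concern 38 genes of DNA replication and S phase in PC3 cells, a human cell line from a bone metastasis of prostate cancer. The genes were taken by name from a fixed list, and each was read from the probe set whose platform annotation gave only that symbol and, where a gene had several such probe sets, from the brightest one. All 38 had a probe set among 33616 named genes. A filter kept the 16808 genes with the highest mean levels, and 36 of the 38 genes passed it. POLD1, the catalytic subunit of DNA polymerase delta, and LIG1, the ligase that joins Okazaki fragments, did not pass and are described apart. RNA was measured on 11 human Clariom D microarrays, 1 per condition. Parental PC3 cells were transfected for 24 h or 48 h with a control siRNA (siNC) or with siRNA against HOXB13 (siHOXB13), HOXA11 (siHOXA11) or the antisense transcript HOXA11-AS (siHOXA11-AS), with siRNAs to 2 sequences of a target combined. Another 3 arrays at 48 h were titled shNC, shIBSP(1) and shIBSP(2). For these 3 the titles say sh and other sources say siRNA, so the type of RNA is not settled. No untransfected cells were analysed here, so every control carried a transfected RNA as well. The cells were cultured without a cell cycle block as far as the sources say, and fewer cells in S phase and less RNA per cell cannot be told apart in bulk RNA.

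DNA is copied once per cell cycle. In G1, ORC with CDC6 and CDT1 loads the MCM2 to MCM7 ring onto origins, a step called licensing, and geminin (GMNN) holds CDT1 back after S phase has begun. At the G1/S transition CDC45 and the GINS complex join MCM to form the CMG helicase, DNA polymerase alpha with primase starts new strands, and the RFC clamp loader places the PCNA ring that tethers polymerases delta and epsilon. E2F1 and related factors drive transcription of many of these genes when cyclin E with CDK2 releases them from the retinoblastoma protein, so RNA levels of this group usually follow the share of proliferating cells.

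Promoter letters that E2F factors are known to recognize were searched in these genes because E2F1 is itself a member. RefSeq promoters (GRCh38.p14, from 250 bases before to 50 bases after a gene's start) were at hand for 33 of the 38 genes. The motifs searched on both strands were TTTGGCGC, TTTCGCGC and GGCGGGAA, and the first and second overlap on opposite strands where they join as TTTGGCGCGAAA. At least 1 of the 3 motifs was found in 21 of 33 genes (63.6%), compared with 5.11% of 27305 genes with a promoter in the same table. By motif, TTTGGCGC was in 8 genes (24.2%, compared with 0.795% of all), TTTCGCGC in 5 (15.2%, compared with 0.630%) and GGCGGGAA in 11 (33.3%, compared with 3.79%). CCAAT, the letters that the factor NF-Y recognizes, were in 21 genes (63.6%, compared with 39.7%). TTTGAA, the core letters of the element bound in many mitosis genes, was in 1 of the 33 genes, RRM1 (3.03%, compared with 18.2%). A match describes letters in the window and does not show that a factor was bound. The windows of 30 bases below are from members whose levels are given further on, and capitals mark the matched motif on either strand.
MCM7, chr7:100101388-100101417, minus strand: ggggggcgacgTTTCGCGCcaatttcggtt
CDC6, chr17:40287875-40287904, plus strand: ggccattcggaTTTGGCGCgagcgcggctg
MCM3, chr6:52284728-52284757, minus strand: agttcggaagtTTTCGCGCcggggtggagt
GINS1, chr20:25407667-25407696, plus strand: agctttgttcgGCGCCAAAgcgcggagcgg
GINS2, chr16:85688968-85688997, minus strand: gctctcgccgtGGCGGGAAaacggcggccg
PCNA, chr20:5126664-5126693, minus strand: gcagcgtcaggGGCGGGAAaaggcgtgcgt
RFC4, chr3:186806474-186806503, minus strand: ctaccggcgtaTTCCCGCCctgcttttcgc
POLE, chr12:132687342-132687371, minus strand: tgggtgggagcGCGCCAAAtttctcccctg
E2F1, chr20:33686387-33686416, minus strand: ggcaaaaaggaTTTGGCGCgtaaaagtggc
In E2F1 the capitals are TTTGGCGC as in CDC6, so the gene of the factor carries the same letters as a licensing gene. MCM7 and the MCM3 window share TTTCGCGC, while GINS1 and POLE carry TTTGGCGC read from the other strand. GINS2, PCNA and RFC4 carry GGCGGGAA, in RFC4 also from the other strand.

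Log2 intensities are given throughout. Genes on different probe sets are not ranked against each other, because a probe's brightness depends on its sequence. The median of the 23 background probe sets was between 3.26 and 3.32 on each array, and the median of the 16808 genes was between 7.19 and 7.58. Markers of PC3 (VIM, KRT8, KRT18, CD44 and AXL) had median levels over the 11 arrays between 11.58 and 16.31. Among genes that PC3 should lack, the probe set of CTNNA1 had a median of 3.13, at background, and KLK3 and KLK2 of the luminal prostate had 6.04 and 4.95. The leukocyte gene PTPRC had a median of 6.59 and the fibroblast gene COL1A1 8.46, so neither was at background. HOXB13 was 10.10 with siNC and 8.09 with siHOXB13 at 24 h, but at 48 h it was 8.52 for the siNC label and 10.36 for the siHOXB13 label. The target thus goes against both of these labels, and the 2 arrays are named by label in all that follows. HOXA11-AS was 6.30 with siNC and 6.01 with siHOXA11-AS at 24 h, and 6.68 (siNC label) and 6.40 at 48 h. With siHOXA11 it was 6.29 at 24 h and 6.25 at 48 h, so at 48 h the siHOXA11-AS array was not the lowest for its own target. These HOXA11-AS levels overlapped those of the probe sets for KLK3 (5.57 to 6.57) and PTPRC (6.22 to 7.09). Such small differences therefore say little about the knockdown.

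Across the 11 arrays, the 36 genes moved over a median span (highest minus lowest array) of 1.36, from 0.88 for PRIM1 to 2.19 for CDT1, compared with 1.23 over all genes kept. They stood highest on the siHOXB13 array at 24 h, which held the top value for 19 of the 36 genes. That array held the top value for 9.63% of all genes. The lowest values came from the siHOXA11 array at 48 h for 20 of the 36 genes and from the 48 h array labelled siHOXB13 for 10, whereas these arrays held the lowest value for 25.8% and 11.1% of all genes. Deviations from each gene's own mean had a median of 0.51 on the siHOXB13 array at 24 h, −0.39 on the 48 h array labelled siHOXB13 and −0.60 on the siHOXA11 array at 48 h. The median over all genes was 0.04, −0.01 and −0.12 on these arrays. With arrays centered on their medians, the members' values became 0.47, −0.39 and −0.38. On the other 8 arrays the members' median deviation lay between −0.06 and 0.21 without centering.

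**Figure D1:**
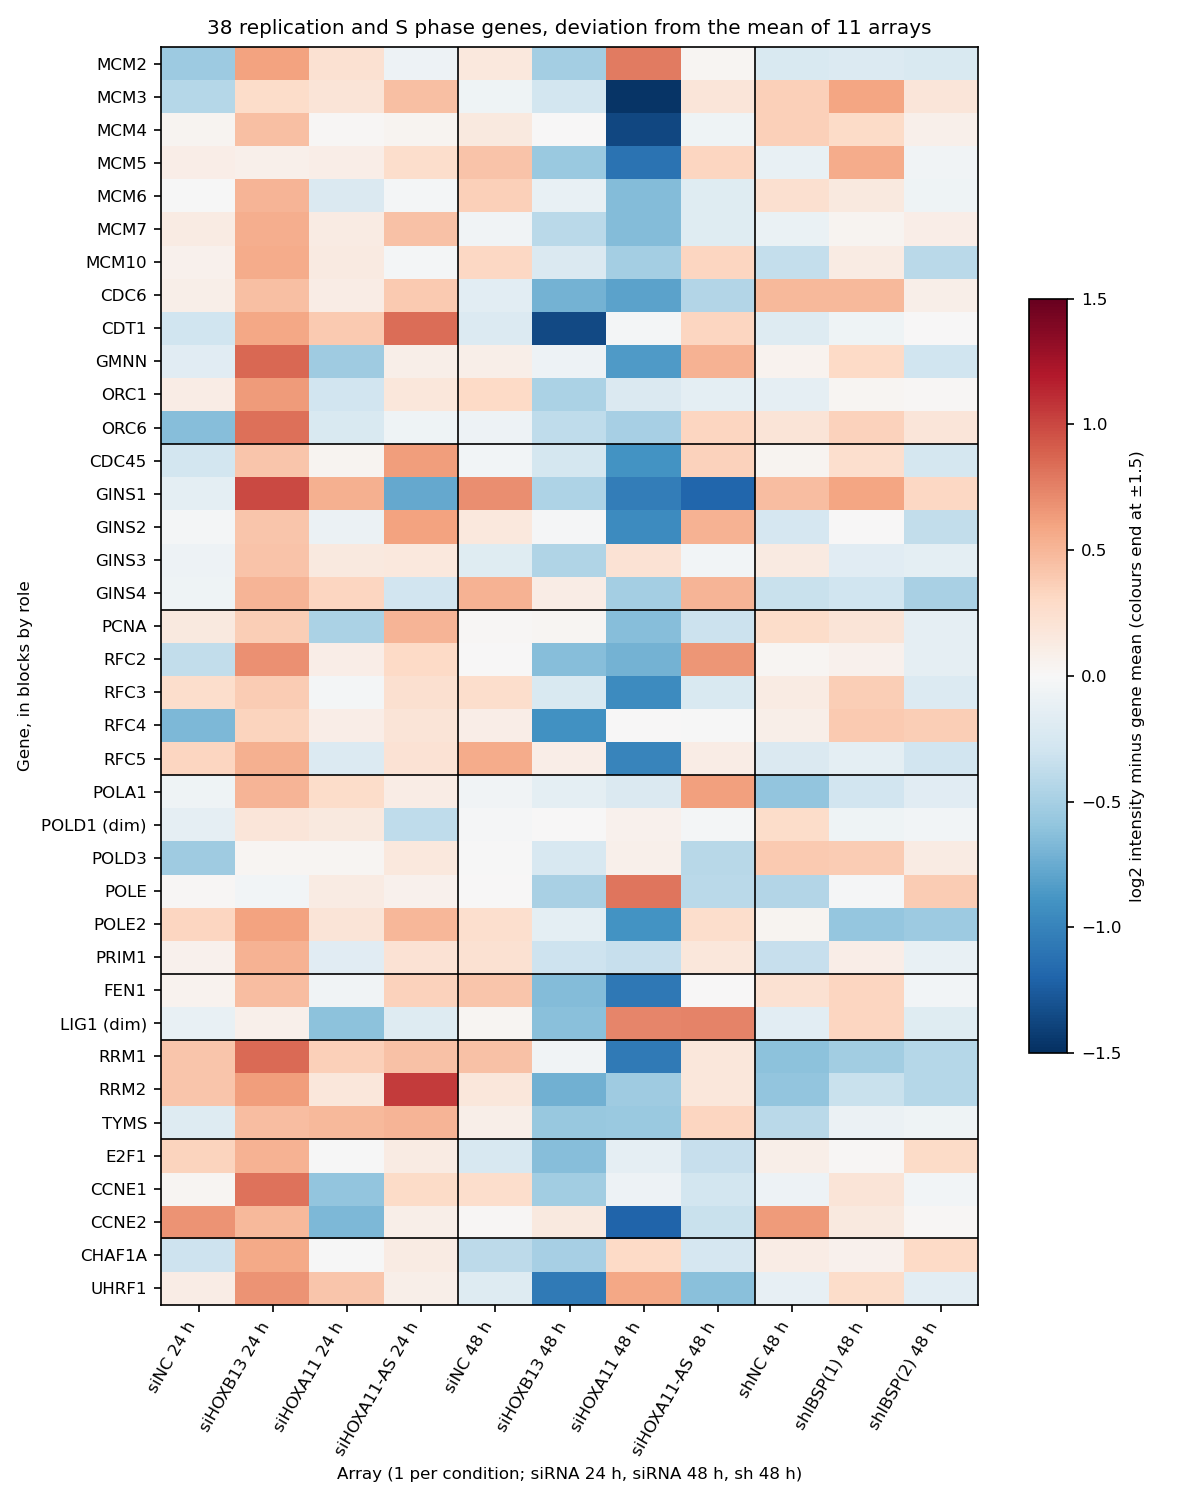
Log2 intensity of the 38 genes on 11 arrays (columns) as the deviation from each gene's mean over the arrays, with genes in blocks by role; red is above and blue below the mean, and colors end at ±1.5. The siHOXB13 column at 24 h is nearly all red, with 35 of the 36 kept genes above their own mean, and the siHOXA11 column at 48 h is mostly blue, with 7 above it.

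Each knockdown was first compared with the control array of its own time. These are differences between 2 arrays and have no test. Counts are therefore set beside the share of all 16808 genes that did the same. At 24 h, 33 of 36 genes were higher with siHOXB13 than with siNC, with a median difference of 0.51, and 66.3% of all genes were higher. Of the 36, 6 were at least 2-fold higher, compared with 4.58% of all genes. At 48 h, the siHOXB13 label was lower than the siNC label for 34 of 36, with a median of −0.47, whereas 52.4% of all genes were lower. Of these, 4 were at least 2-fold lower (4.62% of all genes). The direction at 48 h rests on labels that HOXB13 goes against. When the 48 h array labelled siHOXB13 was set against siNC of 24 h instead, 28 of 36 genes were lower with a median of −0.34 (40.2% of all genes were lower). Read with the 2 labels exchanged, the 48 h difference has its sign turned, with 34 of 36 genes higher (52.4% of all genes) and a median of 0.47, the same sign as at 24 h.

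With siHOXA11, 19 of 36 genes were higher and 17 lower at 24 h, with a median of 0.01 (65.7% of all genes were higher). At 48 h, 28 of 36 were lower with a median of −0.68, compared with 58.9% of all genes, and 13 were at least 2-fold lower, compared with 13.2% of all genes. Against siNC of 24 h, which avoids the array in doubt, 27 of 36 were lower at 48 h with a median of −0.60 (50.4% of all genes were lower). With the labels exchanged, 23 of 36 were lower at 48 h with a median of −0.19, and 57.4% of all genes were lower. The siHOXA11 array at 48 h also had the lowest median over all genes. Over all probe sets, however, it had the highest median intensity, 19.22 on the linear scale compared with 17.38 to 18.19 on the other arrays. Its intensities were thus distributed unlike those of the other arrays. Levels of single genes on it are given below without correction for this, and its part in them was not tested. After the median of all genes was subtracted from each difference, the members' median was −0.15 at 24 h and −0.55 at 48 h, so the direction at 24 h depends on this scaling.

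With siHOXA11-AS, 27 of 36 genes were higher than with siNC at 24 h, with a median of 0.25 (59.9% of all genes were higher). At 48 h 23 of 36 were lower with a median of −0.10 (43.4% of all genes were lower). Against siNC of 24 h the 48 h array had 18 genes higher and 18 lower, with a median of −0.01 (66.8% of all genes were higher). With the labels exchanged, 30 of 36 were higher at 48 h with a median of 0.41 (57.2% of all genes were higher), so the sign at 48 h rests on which array is the control. When siHOXA11-AS was compared with siHOXA11 directly, 29 of 36 genes were higher with siHOXA11-AS at 24 h (45% of all genes) and 26 of 36 at 48 h (62.3% of all genes), with medians of 0.19 and 0.71. At 48 h 12 of the 36 were at least 2-fold higher, compared with 17.5% of all genes. All differences from siNC at a given time share 1 control array and are not independent of each other.

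**Figure D2:**
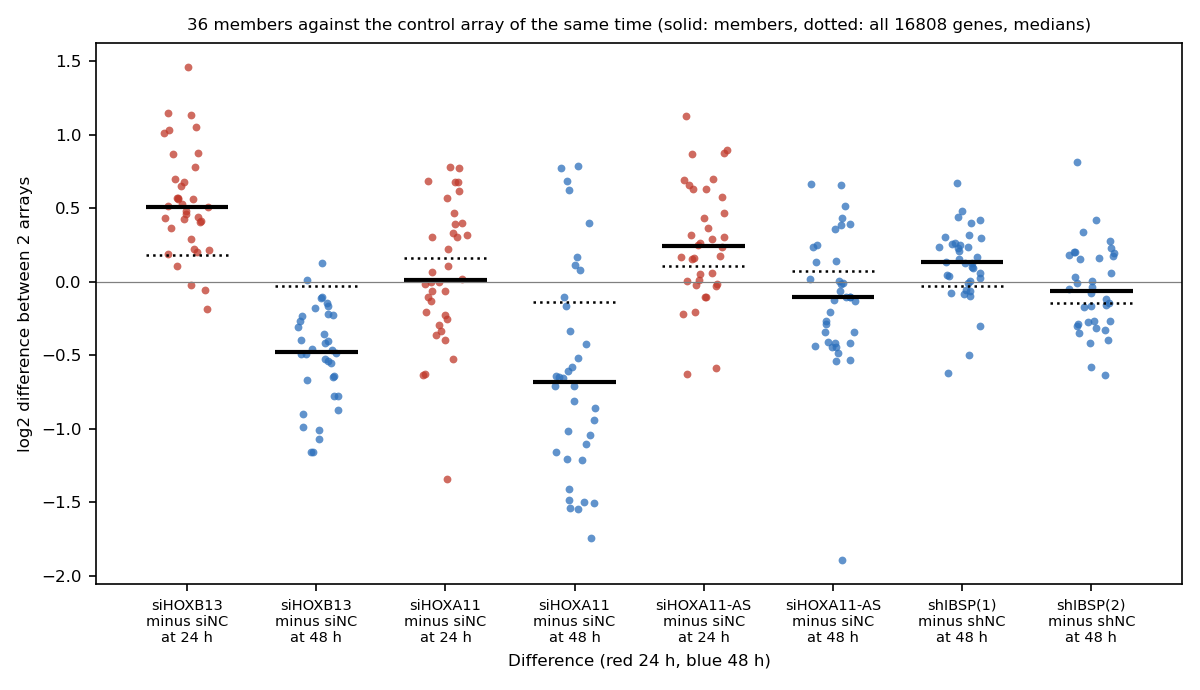
Log2 difference between 2 arrays (vertical axis) for each of the 36 genes (points) in 8 comparisons with the control array of the same time; solid bars are the members' medians and dotted bars the medians of all 16808 genes. The members lie above the dotted bar with siHOXB13 at 24 h (medians 0.51 and 0.18) and below it with siHOXA11 at 48 h (−0.68 and −0.14).

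The part of a difference common to 24 h and 48 h was tested with limma, with siRNA and time as terms over the 8 siRNA arrays and p-values adjusted over all 16808 genes by the Benjamini-Hochberg method. The spread in this fit is the disagreement of an siRNA's effect between the times, on 3 residual degrees of freedom, and its median was 0.41 over the members and 0.34 over all genes. This spread depends on the 48 h labels in doubt, and the fits were not repeated with these labels exchanged. None of the 36 genes passed an adjusted p of 0.05 for siHOXB13, siHOXA11 or siHOXA11-AS against siNC, for siHOXA11-AS against siHOXA11, or for 48 h against 24 h, and neither did any other gene (0% called in each). At an unadjusted p below 0.05 there were 0, 3, 1, 5 and 6 members in these 5 comparisons, compared with 1.01%, 3.68%, 4%, 8.26% and 7.02% of all genes. The methods' t-test, named there for other assays, was run with the 24 h and 48 h arrays as replicates. It was below its threshold for 0, 3 and 1 members in the 3 comparisons with siNC, compared with 445, 586 and 973 of all 16808 genes. No gene passed it after adjustment.

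The siHOXB13 estimates over both times had a median of 0.00 over the members, with 19 of 36 above 0 (61.7% of all genes). This value averages medians of opposite sign, and the 48 h one rests on the labels in doubt. Without the 48 h arrays labelled siNC and siHOXB13 it was 0.51, with 33 of 36 above 0, which is the 24 h difference alone (33.7% of all genes were below 0). For siHOXA11 the median was −0.38, with 26 of 36 estimates below 0 (50.2% of all genes). Without the 48 h array labelled siNC the median was −0.04 with 18 of 36 below 0 (42.7% of all genes). Without both arrays in doubt it was −0.11 with 20 of 36 below 0 (41.7% of all genes). The siHOXA11-AS median was 0.04, with 21 of 36 above 0 (60.3% of all genes). Without the arrays in doubt it was 0.32 with 29 of 36 above 0 (34.9% of all genes were below 0). With arrays centered on their medians, the siHOXB13 and siHOXA11-AS medians became −0.11 and −0.10, so neither has a direction that holds under both scalings. Between siHOXA11-AS and siHOXA11 the median was 0.42 and 28 of 36 estimates were above 0 (57% of all genes).

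Among the licensing genes, MCM3 and MCM4, subunits of the helicase ring, stood apart on the siHOXA11 array at 48 h. In the order siNC, siHOXB13, siHOXA11, siHOXA11-AS, which is kept below, MCM3 was 10.34, 11.04, 10.96 and 11.21 at 24 h. At 48 h it was 10.70, 10.49, 9.29 and 10.95, and 11.12, 11.35 and 10.95 on the shNC, shIBSP(1) and shIBSP(2) arrays. The siHOXA11 value at 48 h was the lowest of the 11, under 10.34 as the next, and the other values overlapped between the times. MCM4 was 10.29, 10.70, 10.27 and 10.29 at 24 h and 10.40, 10.25, 8.89 and 10.19 at 48 h in the same order, and 10.61, 10.53 and 10.33 on the sh arrays. It was again lowest with siHOXA11 at 48 h, while the other 10 arrays lay between 10.19 and 10.70. Of the other ring subunits, MCM5 and MCM6 were also lowest there, with differences of −1.54 and −1.01 from the 48 h array labelled siNC. MCM2 went the other way, with 8.23, 9.38, 9.01 and 8.70 at 24 h and 8.93, 8.26, 9.56 and 8.81 at 48 h, and its highest value was the siHOXA11 array at 48 h. A second, dimmer MCM2 probe set was 5.30 on that array and 5.79 on the 48 h array labelled siNC. Over both times the siHOXA11 estimate was 0.70 (SE 0.45, adjusted p = 0.98) for MCM2, and the siHOXA11-AS minus siHOXA11 estimate for MCM3 was 0.95 (SE 0.46, adjusted p = 0.623).

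MCM7, another ring subunit, was 14.15, 14.58, 14.15 and 14.47 at 24 h and 13.98, 13.62, 13.37 and 13.85 at 48 h. All 4 arrays of 48 h lay below all 4 of 24 h, and the sh arrays at 13.92, 14.06 and 14.12 lay between the extremes. Its estimate for 48 h against 24 h was −0.63 (SE 0.23, adjusted p = 0.705). CDC6, the loading factor, was 11.76, 12.13, 11.78 and 12.07 at 24 h and 11.51, 10.96, 10.87 and 11.23 at 48 h, again with no overlap. On the sh arrays CDC6 was 12.16, 12.16 and 11.76, above every siRNA array of 48 h. The estimate was −0.79 (SE 0.23, adjusted p = 0.705) for time and 0.88 (SE 0.21, adjusted p = 0.0535) for the sh arrays against the siRNA arrays of 48 h. CDC6 had the smallest adjusted p of any member in the 7 tested comparisons, and it passed this last one with a stricter filter on dim genes (adjusted p = 0.0472), after quantile normalization (adjusted p = 0.0411), with an offset added before log2 (adjusted p = 0.0362) and without the 48 h array labelled siNC (adjusted p = 0.0379). CDC6 did not pass in any other setting. Its adjusted p was 0.246 without the shNC array and 0.249 without the shIBSP(1) array. With the 7 arrays of 48 h alone it was 0.168, and without the 48 h array labelled siHOXB13 it was 0.116.

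CDT1, the other loading factor, spanned the widest range, with 6.35, 7.22, 7.04 and 7.48 at 24 h, 6.44, 5.29, 6.62 and 6.96 at 48 h and 6.46, 6.59 and 6.66 on the sh arrays. It was lowest on the 48 h array labelled siHOXB13 and highest with siHOXA11-AS at 24 h. Its inhibitor GMNN was 9.74, 10.78, 9.39 and 10.01 at 24 h, highest with siHOXB13, and 10.01, 9.85, 9.07 and 10.44 at 48 h, lowest with siHOXA11 and highest with siHOXA11-AS. GMNN had an siHOXA11-AS minus siHOXA11 estimate of 1.00 (SE 0.39, adjusted p = 0.596). ORC6, a subunit of the origin recognition complex, was 5.77, 7.23, 6.17 and 6.35 at 24 h and 6.34, 6.03, 5.91 and 6.72 at 48 h, and its siHOXB13 difference of 1.46 at 24 h was the largest among the members. ORC1, an ATPase subunit of the same complex, differed from siNC of the same time by 0.53 with siHOXB13 at 24 h and by −0.78 on the 48 h array labelled siHOXB13. MCM10, a fork scaffold protein grouped here, ranged from 5.26 with siHOXA11 at 48 h to 6.32 with siHOXB13 at 24 h. The levels of CDT1, ORC6 and MCM10 overlapped those of the probe sets for KLK3 (5.57 to 6.57) and the leukocyte gene PTPRC (6.22 to 7.09).

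The helicase activation genes held the member with the largest drops from the 48 h array labelled siNC, whose label is in doubt. GINS1, a subunit of the GINS complex, was 9.95, 11.08, 10.63 and 9.32 at 24 h and 10.79, 9.63, 9.05 and 8.90 at 48 h, with 10.56, 10.69 and 10.40 on the sh arrays. Both siHOXA11-AS values and the siHOXA11 value at 48 h were the lowest 3 of the 11, and the sh arrays lay above the siRNA arrays of 48 h other than the one labelled siNC. GINS1 differed from siNC by 1.14 with siHOXB13 at 24 h and by −1.16 on the 48 h array labelled siHOXB13. With siHOXA11-AS its estimate over both times was −1.26 (SE 0.55, adjusted p = 1.00), with differences of −0.62 at 24 h and −1.89 at 48 h. Read with the 48 h labels siNC and siHOXB13 exchanged, GINS1 differed from the control at 48 h by 1.16 with siHOXB13, −0.58 with siHOXA11 and −0.73 with siHOXA11-AS. Among the other GINS subunits, GINS4 shared the pattern of GINS1 in part, and GINS2 and GINS3 did not. GINS2 was 9.92, 10.36, 9.87 and 10.56 at 24 h and 10.11, 9.93, 9.00 and 10.47 at 48 h, highest with siHOXA11-AS at both times, and its siHOXA11-AS minus siHOXA11 estimate was 1.08 (SE 0.34, adjusted p = 0.552). GINS4 was 6.96, 7.53, 7.35 and 6.74 and 7.55, 7.13, 6.51 and 7.53, also higher with siHOXA11-AS than with siHOXA11 at 48 h but lower at 24 h. Its arrays of 24 h stood in the same order as for GINS1. At 48 h the siHOXB13 label and siHOXA11 lay below the siNC label for both genes, but siHOXA11-AS differed from it by only −0.01 for GINS4. These GINS4 levels overlapped those of the probe set for the leukocyte gene PTPRC (6.22 to 7.09). GINS3 stayed between 7.34 and 8.22 on all 11 arrays. CDC45, which completes the helicase, was 7.63, 8.32, 7.95 and 8.53 at 24 h and 7.86, 7.64, 7.0 and 8.25 at 48 h, with an siHOXA11-AS minus siHOXA11 estimate of 0.92 (SE 0.36, adjusted p = 0.596). CDC45, GINS2 and GINS4 were thus lowest, and GINS1 and GINS3 were not, on the siHOXA11 array at 48 h.

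PCNA, the sliding clamp, was 12.90, 13.12, 12.27 and 13.26 at 24 h, 12.77, 12.78, 12.12 and 12.43 at 48 h and 13.03, 12.95 and 12.62 on the sh arrays. The siHOXA11 arrays were the lowest of each time, and the siHOXA11-AS array went from the highest of 24 h to the second lowest of 48 h. Of the clamp loader subunits, RFC5 was 13.00, 13.22, 12.47 and 12.90 at 24 h and 13.23, 12.78, 11.69 and 12.79 at 48 h, lowest with siHOXA11 at both times. The siHOXA11 estimate for RFC5 was −1.04 (SE 0.34, adjusted p = 0.98), and for RFC3 it was −0.75 (SE 0.33, adjusted p = 0.98). RFC4 did not follow them, with 11.77, 12.78, 12.55 and 12.64 at 24 h and 12.55, 11.54, 12.45 and 12.44 at 48 h. RFC4 was lowest on the 48 h array labelled siHOXB13 and next lowest with siNC at 24 h, and the other 9 arrays lay between 12.44 and 12.84. RFC2 was 8.84, 9.89, 9.31 and 9.50 and 9.21, 8.57, 8.49 and 9.86, highest with siHOXB13 at 24 h and with siHOXA11-AS at 48 h.

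The polymerase genes went different ways. POLE, the catalytic subunit of polymerase epsilon, was 6.94, 6.88, 7.05 and 7.0 at 24 h and 6.94, 6.44, 7.73 and 6.52 at 48 h, and its highest value came with siHOXA11 at 48 h, where most members were low. POLE2, the second subunit of the same enzyme, was 9.46, 9.75, 9.33 and 9.64 and 9.40, 8.99, 8.24 and 9.40, with its lowest value on that array. The 2 subunits therefore lay at opposite ends there, 0.79 and −1.16 from the 48 h array labelled siNC. The POLE levels overlapped those of the probe set for the leukocyte gene PTPRC (6.22 to 7.09), and the POLE2 levels did not. POLE2 was 9.18, 8.57 and 8.60 on the sh arrays, and its shIBSP estimate against shNC was −0.60 (SE 0.39, adjusted p = 1.00), compared with 0.62 (SE 0.42, adjusted p = 1.00) for POLE. POLD3, an accessory subunit of polymerase delta, was 10.63, 10.40, 10.71 and 10.22 on the siRNA arrays at 48 h and 11.03, 11.02 and 10.76 on the sh arrays, all 3 of which were higher. POLA1, the catalytic subunit of polymerase alpha, was 8.80, 8.70, 8.64 and 9.47 at 48 h, highest with siHOXA11-AS. PRIM1, the primase that lays RNA primers, had the smallest span, from 10.39 with siHOXA11 at 48 h to 11.27 with siHOXB13 at 24 h. FEN1, the flap endonuclease of Okazaki fragments, was 11.60, 12.01, 11.50 and 11.89 at 24 h and 11.96, 10.90, 10.48 and 11.55 at 48 h, with its 2 lowest values on the arrays labelled siHOXB13 and siHOXA11 at 48 h. The siHOXA11 estimate for FEN1 was −0.79 (SE 0.41, adjusted p = 0.98). The dim genes POLD1 and LIG1 ranged from 4.02 to 4.68 and from 3.76 to 5.13, near the background probe sets, and were not tested.

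Of the nucleotide supply genes, RRM2, the subunit of ribonucleotide reductase whose level follows S phase, was 15.20, 15.41, 14.95 and 15.84 at 24 h, 14.96, 14.06, 14.25 and 14.95 at 48 h and 14.19, 14.45 and 14.36 on the sh arrays. It was lower at 48 h with each siRNA, although siHOXA11 at 24 h (14.95) lay just under the 48 h array labelled siNC (14.96). Its time estimate was −0.80 (SE 0.24, adjusted p = 0.705). RRM1, the partner subunit, was 14.19, 14.62, 14.12 and 14.20 at 24 h, 14.21, 13.72, 12.71 and 13.94 at 48 h and 13.16, 13.25 and 13.34 on the sh arrays, which lay below every siRNA array except siHOXA11 at 48 h. TYMS, thymidylate synthase, was 13.59, 14.24, 14.27 and 14.29 at 24 h and 13.86, 13.22, 13.22 and 14.10 at 48 h, with siNC the lowest of the 24 h arrays. For RRM1 the siHOXA11 estimate was −0.78 (SE 0.39, adjusted p = 0.98).

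Of the G1/S regulators, E2F1 was 8.75, 8.94, 8.41 and 8.55 at 24 h, 8.18, 7.78, 8.29 and 8.07 at 48 h and 8.50, 8.44 and 8.70 on the sh arrays. The 4 arrays of 48 h all lay below those of 24 h and below the sh arrays, and the time estimate was −0.58 (SE 0.24, adjusted p = 0.705). A second, dimmer E2F1 probe set did not fully separate them. It was 4.78 to 5.59 at 24 h, 4.83 to 5.05 at 48 h and 4.77, 5.30 and 5.43 on shNC, shIBSP(1) and shIBSP(2). CCNE2, the second cyclin E gene, was 9.80, 9.61, 8.46 and 9.21 at 24 h and 9.14, 9.27, 7.93 and 8.80 at 48 h. It was lowest with siHOXA11 at each time, and the siHOXA11 difference of −1.34 at 24 h recurred as −1.21 at 48 h. This was the siHOXA11 estimate with the smallest unadjusted p among the members, −1.27 (SE 0.29, adjusted p = 0.98). CCNE1, the first cyclin E gene, was 8.22, 9.00, 7.59 and 8.47 at 24 h and 8.44, 7.67, 8.11 and 7.91 at 48 h. It was lowest of all with siHOXA11 at 24 h. Among the 4 siRNA arrays of 48 h, siHOXA11 (8.11) was second, below the siNC label (8.44), unlike for CCNE2.

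The chromatin genes also differed from most members with siHOXA11 at 48 h. UHRF1, which brings DNA methylation to new strands, was 10.09, 10.65, 10.39 and 10.07 at 24 h and 9.79, 8.92, 10.56 and 9.36 at 48 h, and CHAF1A, the large subunit of the histone chaperone CAF-1, was 7.34, 8.21, 7.64 and 7.77 and 7.25, 7.14, 7.94 and 7.39. Both were highest of the 48 h siRNA arrays with siHOXA11 and lowest on the 48 h array labelled siHOXB13. Their siHOXA11 estimates over both times were 0.54 (SE 0.44, adjusted p = 0.98) and 0.49 (SE 0.37, adjusted p = 0.98). MCM2, POLE, UHRF1, CHAF1A, GINS3, E2F1, POLD3 and CDT1 were thus the 8 members that were higher with siHOXA11 than on the 48 h array labelled siNC.

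Over time, 34 of 36 estimates for 48 h against 24 h lay below 0, with a median of −0.36, and only MCM2 and GINS4 lay above. Of all genes, 48.9% had an estimate below 0. The estimate averages the 4 arrays of each time, so exchanging the labels siNC and siHOXB13 at 48 h would leave it unchanged. Its SE and p-value do depend on these labels. Without these 2 arrays 31 of 36 estimates lay below 0 with a median of −0.37 (52.8% of all genes), and without the siHOXB13 arrays of either time 28 of 36 did with a median of −0.26 (46.8% of all genes). The 4 labels contributed unequally. With the siHOXB13 label 48 h was lower than 24 h for 36 of 36 genes (median −0.89, 54.8% of all genes), with 15 at least 2-fold lower (7.01% of all genes). The siHOXA11 and siHOXA11-AS arrays were each lower for 28 genes (medians −0.58 and −0.26, with 60.7% and 40.2% of all genes lower). With the siNC label 24 genes were higher at 48 h (median 0.19, 62.7% of all genes). With each of the 4 siRNAs 8 members were lower at 48 h, compared with 6.73% of all genes, and with at least 3 of them 25 members, compared with 29.5%. These counts by label depend on the 48 h labels in doubt. With the labels exchanged, siNC was lower at 48 h for 28 of 36 genes (median −0.34, 40.2% of all genes). The siHOXB13 label was then lower for 32 of 36 (median −0.37, 53.7% of all genes), and 17 members were lower with each of the 4 siRNAs (10.2% of all genes). All 4 arrays of 48 h lay below all 4 of 24 h for MCM7, CDC6 and E2F1 (1.91% of all genes) and the reverse was seen for no member (2.78% of all genes).

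**Figure D3:**
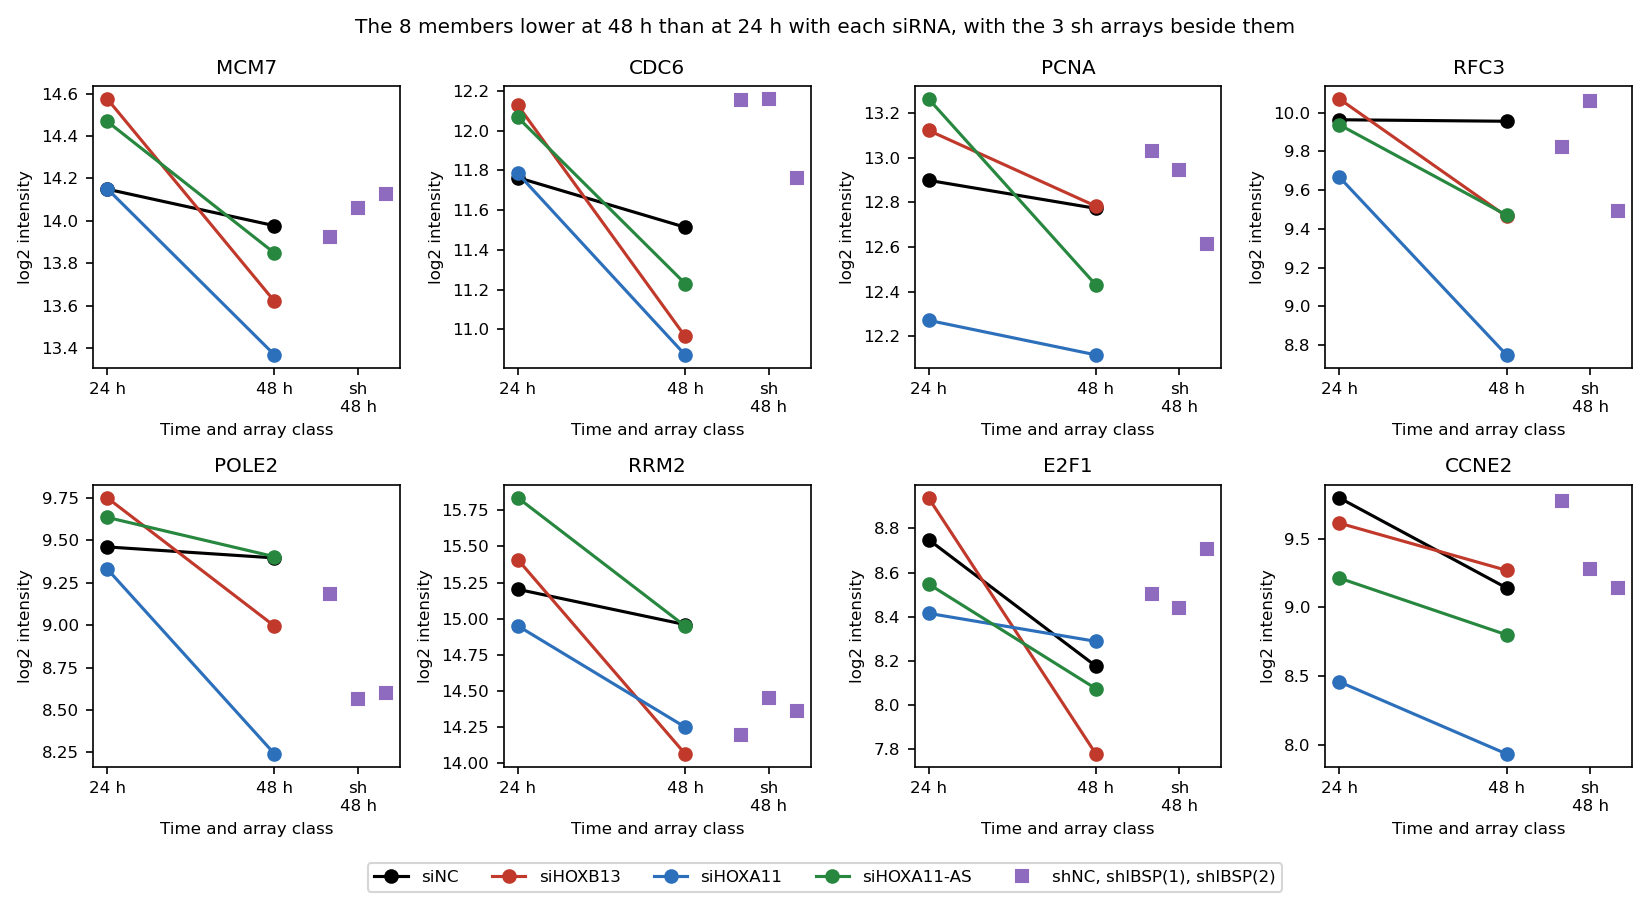
Log2 intensity (vertical axis, a separate scale per gene) of the 8 genes that were lower at 48 h than at 24 h with each of the 4 siRNAs; the 48 h labels siNC and siHOXB13 are in doubt, lines join the 2 arrays of the same label and squares are the shNC, shIBSP(1) and shIBSP(2) arrays from left to right. CDC6 on the sh arrays (11.76 to 12.16) sits with the 24 h arrays (11.76 to 12.13) rather than with the 48 h siRNA arrays (10.87 to 11.51).

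With the IBSP arrays, 27 of 36 genes were higher on shIBSP(1) than on shNC (median 0.13, 46.5% of all genes) and 15 on shIBSP(2) (median −0.06, 36.7% of all genes). After the median of all genes was subtracted these medians were 0.16 and 0.08, so the direction on shIBSP(2) depends on the scaling. No member was 2-fold different on either array, where 1.6% and 4.87% of all genes were at least 2-fold lower. The test of shIBSP against shNC has 1 control array, and its spread on 4 residual degrees of freedom comes from the shIBSP pair and from the siRNA arrays, those in doubt included, so shNC is assumed to vary like these. In this fit of all 11 arrays, none of the 36 genes nor any other passed for shIBSP against shNC, and 0 members had an unadjusted p below 0.05 (2.54% of all genes). The members' median estimate was 0.05, with 20 of 36 above 0 (40% of all genes). POLE2 and CCNE2 had the lowest estimates, and both shIBSP arrays were lower for each. CCNE2 was 9.77, 9.28 and 9.14 on shNC, shIBSP(1) and shIBSP(2), with an estimate of −0.56 (SE 0.33, adjusted p = 1.00). When the 3 sh arrays were compared with the 4 siRNA arrays of 48 h, 346 of all genes passed (2.06%), 265 higher and 81 lower, and no member did. At an unadjusted p below 0.05 there were 3 members, MCM3, CDC6 and E2F1, compared with 12.3% of all genes. The members' median estimate was 0.23, with 24 of 36 above 0 (56.1% of all genes). CDC6, POLD3 and E2F1 were higher on all 3 sh arrays than on all 4 siRNA arrays of 48 h, compared with 7.23% of all genes, and no member was lower on all 3 (3.92% of all genes). The classes differ in the transfected RNA and in the control, and the parts of these cannot be told apart.

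Other genes of the cell cycle were read from lists of the same kind. Of 34 other genes of the fork and origin, none passed in any comparison. Their median differences from siNC were 0.18 with siHOXB13 at 24 h, −0.18 on the 48 h array labelled siHOXB13 and −0.58 with siHOXA11 at 48 h. For siHOXA11 at 48 h 13 of the 34 were at least 2-fold lower, compared with 13.2% of all genes. ORC2, an origin subunit, was 9.06 on that array and between 10.52 and 11.21 on the other 10 arrays. Of 21 other G1/S control genes none passed, with medians of 0.40, −0.30 and −0.47 on the same 3 arrays. Of 12 other nucleotide and chromatin genes of S phase, 1 passed, in 1 comparison. HELLS, a chromatin remodeler, was lower on the sh arrays than on the siRNA arrays of 48 h, by −1.23 (SE 0.28, adjusted p = 0.0346). Of 27 mitosis genes none passed, and their medians were 0.31, −0.12 and −0.57. For 48 h against 24 h, 26 of the 34 fork and origin genes, 16 of the 21 G1/S genes and 23 of the 27 mitosis genes had estimates below 0, compared with 34 of 36 members.

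**Figure D4:**
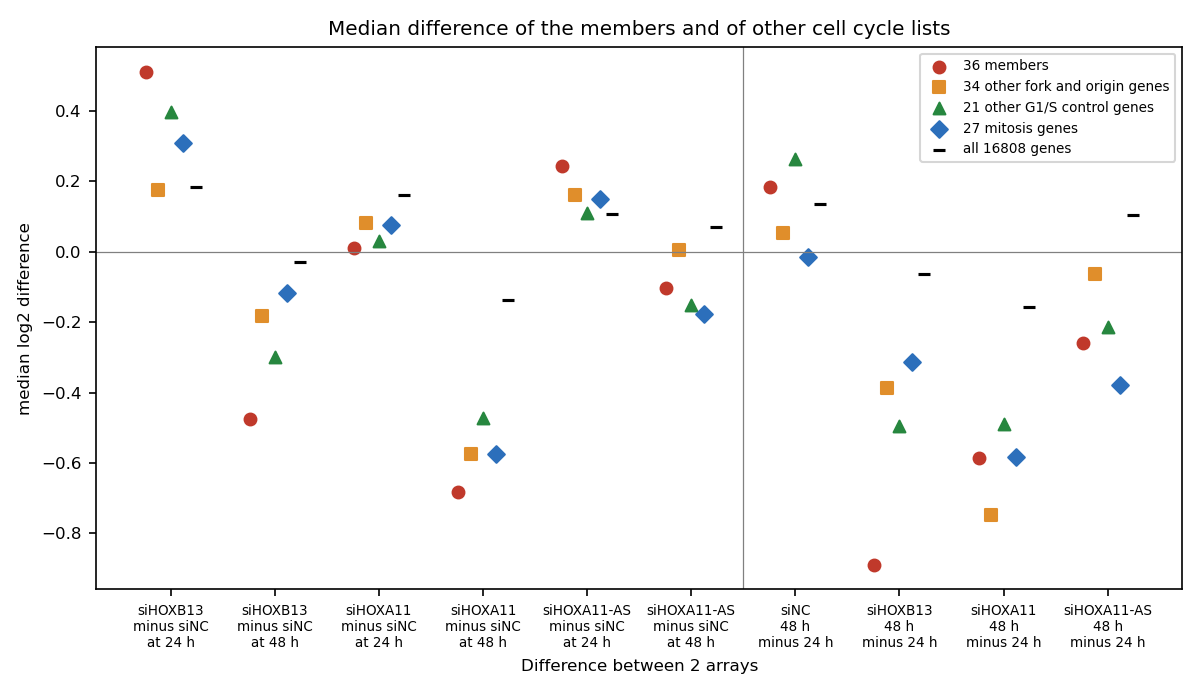
Median log2 difference between 2 arrays (vertical axis) for the 36 genes, 3 other cell cycle lists and all 16808 genes; the 6 comparisons left of the line are with siNC of the same time and the 4 right of it are 48 h minus 24 h for the same label. The mitosis list lies close to the members with siHOXA11 at 48 h (−0.57 and −0.68) and farther from them on the 48 h array labelled siHOXB13 (−0.12 and −0.47).

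The CDK inhibitors, which hold cells out of S phase, did not pass a test either. CDKN1A, the p21 gene, was 6.68, 6.92, 7.82 and 6.99 at 24 h and 7.06, 5.70, 6.74 and 6.44 at 48 h. It was therefore lowest on the 48 h array labelled siHOXB13, where the members were also low. CDKN1B, the p27 gene, was 7.71, 8.33, 7.41 and 9.07 at 24 h and 8.41, 7.87, 6.58 and 8.90 at 48 h. It was lowest with siHOXA11 and highest with siHOXA11-AS at both times, with a difference between the siRNAs of 1.99 over both times (SE 0.40, adjusted p = 0.45). CDKN2A, which encodes p16 and p14ARF, was highest with siHOXA11-AS at 48 h, at 8.69 compared with 6.84 to 7.97 on the other arrays. CDKN1C ranged from 5.80 to 6.87, CDKN2B from 4.58 to 5.36 and CDKN2D from 5.46 to 6.01.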

How the data were processed

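RNA was measured on 11 Clariom D arrays, 1 per condition. The deposited intensities are linear probe set summaries that the authors made with Affymetrix Expression Console, per the submitters' processing notes; for its version, summary method and normalization, the entry is "not given in the sources used here". Log2 was taken with no further normalization. Of 138745 probe sets, 36176 had a single symbol, 1119 had more than 1, and 101419 had no name in the table used, among them any for HOXA11. The brightest probe set stood for a gene, and genes with a mean log2 of at least 4.90 were kept (16808 of 33616).

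Differences at 1 time are values of 2 arrays. limma 3.58.1 (R 4.3.3, threshold 0.05 after Benjamini-Hochberg adjustment over all genes kept) was fitted with siRNA and time on 8 arrays, with treatment and time on 11 arrays (shIBSP against shNC) and on 3 classes of arrays (sh against siRNA at 48 h), and was tested on simulated data. The p-values measure only the spread between arrays, which may be technical, and the number of arrays limits the precision. Members with the largest estimates or differences in each comparison and genes that passed were named, and other genes were named after their values were seen. The members and lists were chosen with earlier results of these data known. Alternatives changed the filter, scaling, offset, probe set rule, variance trend, model terms and arrays included.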

Additional observations from a re-analysis of the deposited data

Results flagged for a closer look

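The median difference from siNC over the 36 members took opposite signs at the 2 times. It was 0.51 at 24 h and −0.47 at 48 h for siHOXB13, 0.012 and −0.68 for siHOXA11, and 0.25 and −0.10 for siHOXA11-AS. For siHOXA11 both were below 0 (−0.15 and −0.55) once the median of all genes was subtracted. Among single members with siHOXB13, GINS1 was 1.14 and −1.16, and RFC4 was 1.01 and −1.01. None of these differences between the times was tested, since there was 1 array per condition. Every 48 h value here rests on an array whose label HOXB13 goes against. Read with the 48 h labels siNC and siHOXB13 exchanged, the 48 h medians were 0.47, −0.19 and 0.41, and GINS1 and RFC4 were 1.16 and 1.01 with siHOXB13, so for siHOXB13 and siHOXA11-AS both times then had the same sign.

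In 6 of 72 sets of 4 siRNA arrays of 1 time, an array lay apart from the other 3 by a share of the whole range above Dixon's critical value, where chance alone gives about 1 in 20 sets. The same was seen for 6.04% of all genes at 24 h and 6.60% at 48 h. At 24 h these were MCM4 with siHOXB13 (10.70, gap of 0.960 of the range), MCM5 with siHOXA11-AS (8.96, 0.887), RRM1 with siHOXB13 (14.62, 0.840) and TYMS with siNC (13.59, 0.935). At 48 h they were MCM4 with siHOXA11 (8.89, 0.865) and RFC4 on the array labelled siHOXB13 (11.54, 0.896).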

How the results depend on the processing

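Over all the settings tried, 351 of 404 counts and medians kept their value, taken as within 1.5 times for a count and as the same sign and a shift of at most 0.1 for a median on the log2 scale, and 53 moved. Of 997 values for the genes with the largest estimates, 963 kept their sign and side of the threshold, 4 newly passed and 30 changed sign. Both tallies include settings that cannot move an estimate, such as leaving out an array on neither side of a contrast. The first also includes counts of genes passed that stayed at 0. They therefore do not measure how stable the results are. No gene passed in any of the 4 contrasts between siRNAs under any setting.

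Without the 48 h arrays labelled siNC and siHOXB13, the medians over the members were 0.51 for siHOXB13, −0.11 for siHOXA11 and 0.32 for siHOXA11-AS, the siHOXB13 estimates for FEN1 and RRM2 turned to 0.41 and 0.21, the siHOXA11-AS estimates for MCM6 and RFC5 to 0.051 and 0.069, the time estimate for GINS4 to −0.023, and 223 genes instead of 346 passed for the sh arrays against the siRNA arrays. With these 2 labels exchanged, a reading added after the data were seen and given no test, the 48 h medians were 0.47, −0.19 and 0.41. The siHOXB13 median at 48 h was −0.34 against siNC of 24 h.

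With arrays centered on their medians, the medians over both times were −0.11 for siHOXB13, −0.097 for siHOXA11-AS, 0.28 for siHOXA11-AS against siHOXA11, 0.16 for shIBSP and 0.12 for the sh arrays, and at 1 time they were 0.29 (siHOXB13), −0.18 (siHOXA11) and 0.10 (siHOXA11-AS) at 24 h, −0.48 (siHOXA11) and −0.23 (siHOXA11-AS) at 48 h and 0.14 for shIBSP(2). For time, 1 gene, no member, passed. After quantile normalization the medians were −0.10 for siHOXB13, −0.11 for siHOXA11-AS, 0.24 for siHOXA11-AS against siHOXA11, 0.18 for shIBSP and 0.12 for the sh arrays, and the time estimate for GINS4 was −0.0027. With all probe sets of a gene averaged, the siHOXB13 median was −0.015, MCM2 was −0.11 with siHOXB13 and GINS3 was 0.0071 with shIBSP. With the 7 arrays of 48 h alone 170 genes passed for the sh arrays against the siRNA arrays. In that comparison CDC6 was the 1 member that passed with a stricter filter on dim genes, with quantile normalization and with an offset.

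Leaving out 1 array at a time gave medians from −0.31 to 0.35 for siHOXB13, −0.70 to −0.036 for siHOXA11, −0.24 to 0.39 for siHOXA11-AS, 0.24 to 0.61 for siHOXA11-AS against siHOXA11, −0.49 to −0.26 for time, −0.065 to 0.13 for shIBSP and 0.085 to 0.30 for the sh arrays. Over these settings the estimate changed sign at least once for 34, 17, 26, 9, 9, 16 and 11 of the 36 members in the same order. Among the genes with the largest estimates, the siHOXB13 estimates that changed sign ran from −0.55 to 1.03 for MCM2, −0.095 to 0.97 for GMNN, −0.14 to 1.29 for ORC6, −0.92 to 0.26 for FEN1, −0.71 to 0.022 for RRM2 and −0.12 to 0.88 for CHAF1A. With siHOXA11 they ran from −0.043 to 0.94 for POLE and −0.0032 to 1.08 for UHRF1, and with siHOXA11-AS from −0.035 to 1.16 for MCM3, −0.66 to 0.10 for MCM6 and −0.61 to 0.069 for RFC5. For time they ran from −0.15 to 0.46 for MCM2 and −0.22 to 0.33 for GINS4. For the sh arrays against the siRNA arrays 154 (without shNC) to 449 genes (without siHOXA11 at 48 h) passed, and 0 to 1 members, with CDC6 passing without the 48 h array labelled siNC.

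The cause of these changes was not tested. The fit of shIBSP against shNC without shNC was not run, since it leaves no control. No analysis paired by replicate was possible because each condition has 1 array, so the replicate numbers do not tie arrays together. The estimate for 48 h against 24 h does pair the arrays of the same siRNA label, through the siRNA term. The fits on the 8 siRNA arrays match each siRNA with siNC within a time through the time term, and leaving out that term changed no call. Genes near background carry little signal, and 1 array per condition limits every value.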
